A study of Mus musculus with 24 samples.

Results

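Small nucleolar RNAs (snoRNAs) and the non-coding genes that host them were followed in mouse blastocysts from obese and lean parents. Members were the genes whose symbol in the platform annotation starts with Snord, Snora or Snhg, plus Gas5, and each was read from its probe set of highest mean among those with 1 symbol. This gave 57 of the 19938 genes named on the Affymetrix arrays, made up of 31 box C/D snoRNAs (Snord), 20 box H/ACA snoRNAs (Snora) and 6 host genes (Gas5, Snhg5, Snhg11, Snhg15, Snhg16 and Snhg17). A further 41 probe sets carry a member's name together with other symbols and were not used.

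The blastocysts came from NMRI mice, an outbred stock, and the study compared obesity of the father and of the mother in embryos of each sex. From 3 weeks of age, and for 9 weeks, future obese parents were fed a modified high-fat, high-calorie diet (a cohort of 7 animals) and lean parents the control diet (14 animals). All were mated at 12 weeks, with the control diet for everyone while mating. Embryos were taken on day 3.5 post coitum, and each of 24 arrays took the lysate of 3 sex-matched embryos of 1 mother, amplified with the Ovation One-Direct kit. The 6 groups had lean parents, a lean mother with an obese father, or an obese mother with a lean father, each with 4 male (XY) and 4 female (XX) pools. Pools are called here by the array number in their titles. The labels do not say which animals were the parents of a pool, and p-values measure only the spread between these pools. There were 8 pools of obese mothers for 7 high-fat animals and 16 pools of lean mothers for 14 control animals. If these cohorts were all the animals, some pools shared a mother, so pools of a group may not be independent.

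SnoRNAs are short nuclear RNAs that direct the modification of ribosomal RNA. Box C/D snoRNAs guide 2'-O-methylation with the methyltransferase fibrillarin, box H/ACA snoRNAs guide pseudouridylation with dyskerin, and a few (the U17, U22 and U8 RNAs, here Snora73a and Snora73b, Snord22 and Snord118) are needed for cutting the ribosomal precursor. Most mammalian snoRNAs are cut from introns of a host transcript, often a gene for a ribosomal protein or translation factor. Gas5 and several Snhg genes are hosts whose spliced RNA has no long reading frame and is degraded by nonsense-mediated decay when it is translated, and many hosts start transcription at a run of pyrimidines, the terminal oligopyrimidine motif. In the early embryo ribosome production restarts after zygotic genome activation, well before the blastocyst forms. By their positions in RefSeq, 50 of the 51 snoRNA genes lay inside a host, 37 in protein-coding genes (21 of them in ribosomal protein genes) and 13 in long non-coding RNA genes, while Snord118 lay in none. Strand was not used, and 3 snoRNAs lay inside more than 1 gene, of which the smallest was taken.

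The start sites of the 6 host members are shown because the host's first bases decide whether it carries the pyrimidine motif, and because the 1 member that passed the test, Snord47, lies in Gas5. Each window runs from 10 bases before a RefSeq start site to 20 bases from it on the gene's own strand (GRCm38.p6), with a run of C and T that begins with C at the start in capitals.
Gas5 start 1 (chr1:161034591-161034620, plus strand): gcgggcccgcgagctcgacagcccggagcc
Gas5 start 2 (chr1:161035156-161035185, plus strand): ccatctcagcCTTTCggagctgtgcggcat
Snhg5 (chr9:88522878-88522907, minus strand): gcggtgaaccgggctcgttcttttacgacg
Snhg11 (chr2:158375703-158375732, plus strand): tgcggcactcactcacgcactcagcctgct
Snhg15 (chr11:6528741-6528770, minus strand): ctgtgaccgtaactttaagcacacgtgagc
Snhg16 (chr11:116671650-116671679, plus strand): gcgcaagcgcgatctcgtcctttccgaggt
Snhg17 start 1 (chr2:158361503-158361532, minus strand): agcgcccatcgtgaagaccacagtttcctg
Snhg17 start 2 (chr2:158361490-158361519, minus strand): aagaccacagtttcctgtcgcgtggatgtg
Of these, the second Gas5 start opens with such a run, CTTTC, of 5 bases, and the other starts shown do not have one that begins with C at the listed base. The second Snhg17 start opens with TTTCCT, a run led by T, which was not counted. A run of at least 5 was found on the gene's strand at a start of 6 of the 30 hosts in the table (20%) and of 3.0% of all 27025 genes. No motif at the listed base says only that these letters are not there.

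The whole promoter window of that second Gas5 start, with its 250 bases before and 50 bases from the start, covers chr1:161034916-161035215.
Gas5 start 2 promoter: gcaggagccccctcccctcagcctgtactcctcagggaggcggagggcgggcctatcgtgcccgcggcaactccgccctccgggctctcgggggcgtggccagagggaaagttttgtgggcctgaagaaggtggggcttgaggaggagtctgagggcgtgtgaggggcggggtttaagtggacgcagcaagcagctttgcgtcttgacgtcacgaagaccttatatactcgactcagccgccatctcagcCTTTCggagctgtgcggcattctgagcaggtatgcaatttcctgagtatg

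All levels are deposited log2 intensities. With 4 arrays a group, that number limits the precision, and levels do not order RNA amounts between probe sets. How widely the values of 1 array vary (their SD), called here its signal spread, ran from 1.27 to 1.81, with a mean of 1.56 ± 0.11 (SD, n = 4) in obese-father XY pools and 1.38 ± 0.12 in lean XY pools. Array 22 (obese father, XX) and array 12 (obese father, XY) had the widest spread, and results that rest on them are given without them too. Of the markers of trophectoderm, the outer layer, 7 of 9 exceeded the table's median of 2.56 on all 24 arrays, and of the epiblast markers 5 of 7 did. Markers of the follicle's cumulus and granulosa cells had a mean level of 2.49 to 2.91 in obese-father XY pools and of 2.92 to 3.36 in lean XY pools. Of 7 such markers on the array 3 exceeded the median on all arrays and 6 were tested. All 6 were below 0 in that comparison and 4 had an unadjusted p under 0.05. Over all genes tested 33.3% were above 0 and 10.4% were lower at that p. The part of these markers in the results was not tested. Of 3 blood markers Ptprc and Lyz2 exceeded the table's median on no array and Cd52 on 10. Of 3 oviduct and uterus markers Ltf and Muc1 exceeded it on no array and Pax8 on 23. Of 4 sperm markers, Prm1, Prm2 and Tnp1 exceeded it on all 24 arrays and Odf1 on 23.

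Most snoRNAs were dim. Of the 51, 16 exceeded the median of all values on no array, 14 on 1 to 3, 16 on 4 to 23 and 5 on all 24. Tests were run on genes above that median on 4 or more arrays, which kept 66.8% of all genes but 41.2% of snoRNAs, namely 12 box C/D and 9 box H/ACA snoRNAs, and all 6 host members. The other 30 snoRNAs were not tested, and their values are given as levels. A snoRNA that passes through 4 high arrays of 1 group must differ there, so counts over the 27 tested members are descriptions. Counts at an unadjusted p in the main fit are given beside counts over all 57 without the filter. Counts by class and of groups without overlap cover tested members alone. The probe sets cannot tell a mature snoRNA from the intron of its unspliced host.

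The 5 snoRNAs that exceeded the median on all arrays were Snora73b, Snora73a, Snord22, Snord49b and Snord55. Snora73b, the brightest, had a mean of 4.89 over the 24 arrays and stayed between 4.34 and 5.84. Snora73a, its neighbour in the host gene Snhg3, averaged 3.80, with a range from 2.84 to 5.08. Snord22, which lies in Snhg1, averaged 3.49, and Snord55 averaged 3.31 with an SD of 0.25. Snord49b averaged 4.44 but reached 8.81 in lean XX pool 16. At the dim end stood Snord37 (mean 1.19), Snora69 (1.20), Snora2b (1.20) and Snord52 (1.21), none of which exceeded the median on any array. Among the hosts, Gas5 averaged 8.99, Snhg17 5.41, Snhg11 5.04, Snhg15 4.17, Snhg5 3.26 and Snhg16 2.54.

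Several probe sets were present for 8 members, and they did not always speak with 1 voice. The sets of Snord118 and those of Snora30 held identical values on all 24 arrays, and those of Snora3 correlated at r = 1.0 over the 24 arrays. The brightest set of Snhg17 (mean 5.41) and its dimmest set (2.35) correlated at r = -0.52. A value for Snhg17 therefore depends on which set is read.

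Snord47, a box C/D snoRNA, was the member that passed the test, and it was higher in XY pools of obese fathers. It stood at 4.09 in pool 9, 2.87 in pool 10, 3.48 in pool 11 and 4.74 in pool 12, a mean of 3.79 ± 0.81 (SD, n = 4). Lean XY pools 1 to 4 stood at 1.07, 1.25, 2.09 and 1.71, a mean of 1.53 ± 0.46. Every obese-father XY pool exceeded the other 20 arrays, of which the highest, obese-father XX pool 24, was at 2.34. The log2 fold change was 2.26 (SE 0.32, 95% interval 1.59 to 2.94, limma adjusted p = 0.00767 over 13311 genes). Snord47 was the sole called gene, or 0.00751% of genes tested, in this comparison, and the 4 arrays that carried it past the filter were these same 4. In the fit of all 19938 genes without the filter, its adjusted p was 0.00795. In pooled embryos, fewer cells of a type and less RNA per cell cannot be told apart.

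In the other groups Snord47 lay close to the lean level. Obese-father XX pools averaged 1.77 ± 0.47 against 1.55 ± 0.32 in lean XX pools, a log2 fold change of 0.22 (SE 0.32, 95% interval -0.45 to 0.89). Obese-mother pools averaged 1.72 ± 0.34 in XY and 1.75 ± 0.36 in XX. XY pools of obese mothers were lower than those of obese fathers by a log2 fold change of -2.08 (SE 0.32, limma adjusted p = 0.0279), where 0.00751% of genes were called. With obese fathers, XY pools exceeded XX pools by 2.02 (SE 0.32, limma adjusted p = 0.0399), again with 0.00751% of genes called. Without the filter the adjusted p of these comparisons was 0.03 and 0.0433. All 3 comparisons share the obese-father XY arrays. The difference between the XY and XX effects of obese fathers was 2.04 (SE 0.46, 95% interval 1.09 to 2.99), which did not pass over all genes (limma adjusted p = 0.654).

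Over the alternatives that gave a value, the fold change against lean XY pools stayed between 1.95 and 2.57, with limma adjusted p from 0.000705 to 0.311. The call was lost in a fit of those 8 arrays alone (adjusted p = 0.311), without lean XY pool 1 (2.11, adjusted p = 0.073) and without obese-father XY pool 9 (2.16, adjusted p = 0.0662), and it held without the 2 arrays of widest spread (1.95, adjusted p = 0.0443). The calls against obese mothers (-1.76, adjusted p = 0.172) and against XX pools (1.75, adjusted p = 0.141) were lost without those 2 arrays. The call against obese mothers was also lost when obese-father XY pool 9, 11 or 12 or obese-mother XY pool 5, 6 or 8 was left out, with fold changes from -2.38 to -1.76 over all such fits. The call against XX pools was lost without obese-father XY pool 9, 11 or 12 or obese-father XX pool 21, 22 or 23, with fold changes from 1.71 to 2.33.

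**Figure D1:**
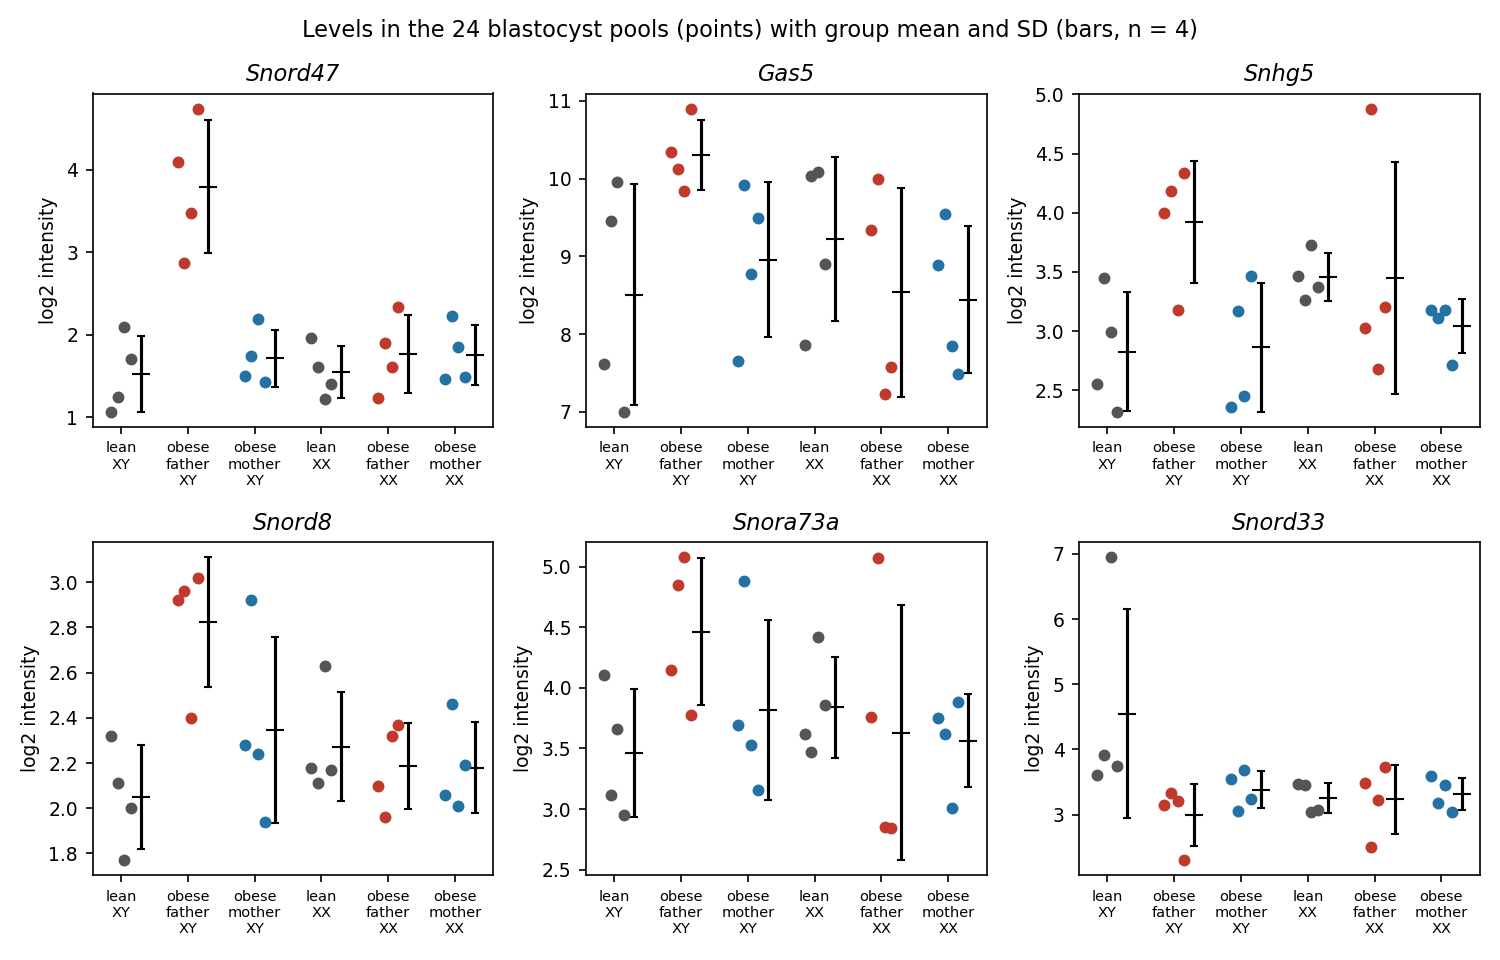
Log2 intensity (y axis) of 6 members in the 24 pools, by group (x axis), with each pool as a point and the group mean and SD (n = 4) as a bar. The 4 obese-father XY pools of Snord47 sit between 2.87 and 4.74, above the other 20 arrays. Snord33 has 1 lean XY pool at 6.95, and groups of Gas5, read from its brightest probe set, overlap.

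Gas5, the host of Snord47, is a growth-arrest-associated non-coding RNA whose introns hold a cluster of box C/D snoRNAs. Its brightest probe set read 10.34, 10.12, 9.84 and 10.90 in obese-father XY pools 9 to 12 and 7.61, 9.45, 9.96 and 7.0 in lean XY pools 1 to 4. In this set the groups overlapped, since lean pool 3 exceeded obese-father pool 11. The means were 10.30 ± 0.45 and 8.50 ± 1.42 (SD, n = 4), and the log2 fold change of 1.80 (SE 0.70, 95% interval 0.34 to 3.25) was not called (limma adjusted p = 0.316). Across the 24 arrays Gas5 followed the signal spread (Pearson r = 0.83), and with that spread as a covariate the difference was 0.57. Snord47 had r = 0.43 with the spread, and its difference with the covariate was 2.12 (limma adjusted p = 0.0271).

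The other 3 Gas5 probe sets were dim, with means of 3.44, 2.38 and 1.88, and the files do not say which part of Gas5 each one matches. Their obese-father minus lean differences in XY pools were 2.20, 1.55 and 1.08. The set of mean 3.44 read 5.46, 3.31, 3.47 and 6.27 in obese-father XY pools 9 to 12. Lean XY pools 1 to 4 read 2.18, 2.42, 2.3 and 2.81 in this set, so these groups did not overlap. It also read 5.59 and 5.74 in lean XX pools 14 and 15 and 5.88 in obese-father XX pool 21. This set was not tested alone. The set of mean 2.38 read 6.05, 2.02, 1.34 and 4.56 in obese-father XY pools 9 to 12, and the set of mean 1.88 read 4.57, 1.49, 1.0 and 3.83. In both, pools 9 and 12 were high, the same pools in which Snord47 was highest, and pools 10 and 11 were low. The set of mean 2.38 was also at 6.48 in obese-mother XY pool 6 and at 4.17 in obese-father XX pool 21, where Snord47 read 1.75 and 1.23. The set of mean 1.88 had its highest value of all arrays, 4.76, in lean XX pool 15, where Snord47 read 1.22. Over deviations from the group means in 24 arrays, Snord47 correlated with the 4 Gas5 sets, in order of brightness, at r = 0.10, -0.0, 0.31 and 0.35, a description of arrays that share amplification and scaling.

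More snoRNAs, Snord47 among them, stood above than below their lean level in obese-father XY pools, whereas most genes stood below in the values as deposited. Of all 51 snoRNAs, 32 had a higher mean than in lean XY pools, with a median difference of 0.12, whereas 29% of all named genes did, with a median of -0.13. Without the filter, 7 of 57 members were higher and 3 lower at an unadjusted p under 0.05, beside 3.28% and 11% of genes. Among the 27 tested members 6 were higher and 2 lower, beside 4.3% and 10.4% of genes tested, and 18 were above 0, with a median of 0.29 against -0.11 over all genes tested. The count of tested members above 0 was 18 with arrays centred on their medians, 17 after quantile normalization and 20 with the spread as a covariate. In that order, the median was 0.38, 0.38 and 0.46 over these members and -0.03, -0.08 and -0.02 over all genes tested. At an unadjusted p under 0.05, 9, 7 and 4 members were higher and 2, 2 and 1 lower. Of all genes, 13.2%, 15.3% and 7.18% passed that p in either direction. By class, 9 of 12 box C/D and 7 of 9 box H/ACA snoRNAs were above 0, and 2 of the 6 hosts. No member other than Snord47 was called, and the next smallest limma adjusted p was 0.316.

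Snord8 came next among members that were higher. It read 2.92, 2.96, 2.40 and 3.02 in obese-father XY pools and 2.32, 2.11, 1.77 and 2.0 in lean XY pools, so the groups did not overlap. The log2 fold change was 0.78 (SE 0.19, limma adjusted p = 0.316), and in XX pools it was -0.09. Arrays of the 2 groups did not overlap for 2 higher members (Snord47 and Snord8) of 27, beside 1.91% of genes. On the lower side 2 members (Snord33 and Snhg17) did not, beside 6.63%. The higher count is partly fixed by the filter, which Snord47 passed through obese-father XY arrays alone and Snord8 in part. Over all 57 members such groups were not counted, and the untested Snora31, described below, did not overlap either.

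Snhg5, a non-coding host gene, read 4.0, 4.18, 3.18 and 4.34 in obese-father XY pools and 2.55, 3.45, 2.99 and 2.32 in lean XY pools. Obese-father pool 11 lay among the lean pools, and the others lay above them. The log2 fold change of 1.10 (SE 0.37, limma adjusted p = 0.316) became 0.49 with the spread as a covariate, and Snhg5 had r = 0.81 with the spread.

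Snora73a, a U17 RNA, read 4.15, 4.85, 5.08 and 3.78 in obese-father XY pools against 4.11, 3.12, 3.66 and 2.95 in lean XY pools. Its log2 fold change was 1.0 (SE 0.43, limma adjusted p = 0.319), and its sister Snora73b from the same host differed by 0.26 (SE 0.30). Both were highest in obese-father pools 10 and 11 within that group.

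Snora30, which lies in the chromatin remodeller gene Srcap, also differed by 1.0 (SE 0.42), but 1 pool carried it. Pool 11 read 5.27, the other obese-father XY pools read 3.12, 2.29 and 2.49, and lean XY pools read 2.95, 1.90, 1.85 and 2.48. Without pool 11 the difference was 0.34.

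Snora31, which lies in Tpt1, was not tested because only 3 arrays exceeded the median. It read 3.16, 1.86, 2.12 and 3.31 in obese-father XY pools, above lean XY pools at 1.62, 1.24, 1.56 and 1.49, a difference of 1.14. In a fit without the filter its limma adjusted p was 0.314. Snord22, the U22 RNA (0.55, SE 0.28), Snord15b from Rps3 (0.46, SE 0.23) and Snord95 from Rack1 (0.71, SE 0.38) also stood above 0 with overlapping groups.

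Snord33 stood at the other end. This box C/D snoRNA and Snord35a lie in introns of the ribosomal protein gene Rpl13a, whose snoRNAs have been tied to the response of cells to excess lipid. It read 3.14, 3.33, 3.21 and 2.30 in obese-father XY pools and 3.60, 3.91, 6.95 and 3.74 in lean XY pools. The groups did not overlap, and lean pool 3 stood far above the rest. The log2 fold change was -1.55 (SE 0.48, limma adjusted p = 0.316), and without lean pool 3 it was -0.75 (adjusted p = 0.171). Snord35a was dim, at 1.26 ± 0.21 against 1.51 ± 0.17. Probe sets of Rpl13a itself are shared with other symbols and were not used.

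Snhg17 read 5.28, 5.28, 5.32 and 4.62 in obese-father XY pools and 5.69, 5.61, 5.62 and 5.51 in lean XY pools. The groups did not overlap, with a log2 fold change of -0.48 (SE 0.21, limma adjusted p = 0.319). Across the 24 arrays Snhg17 had r = -0.83 with the signal spread, and its value of 4.62 was on array 12, of wide spread. The mean of its 3 probe sets turned the difference to 0.08. Snora52 differed by -0.95 (SE 0.60), with lean XY pool 4 at 6.25 and the other lean XY pools at 2.22 to 2.67, and without pool 4 it differed by -0.01. Snhg11 differed by -0.36 (SE 0.26), which became 0.13 with the spread as a covariate, and Snord55 by -0.22 (SE 0.19).

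**Figure D2:**
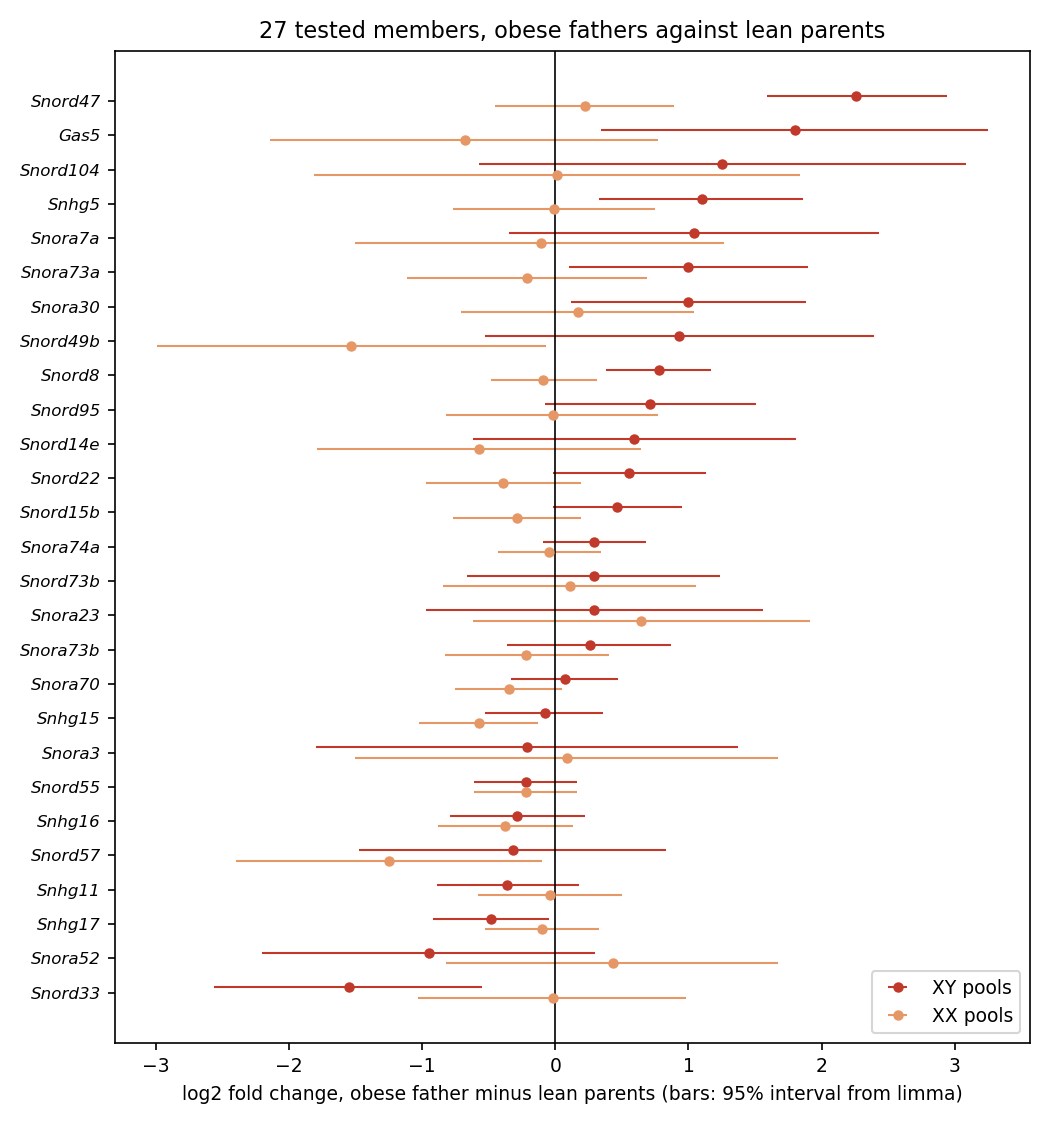
Log2 fold changes (x axis) of the 27 tested members (y axis), obese fathers against lean parents, in XY pools (red) and XX pools (orange), with 95% intervals from limma. Snord47 in XY pools stands at 2.26 with an interval from 1.59 to 2.94, and Snord33 at the lower end stands at -1.55.

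In XX pools of obese fathers no member was called (limma, smallest adjusted p over all genes 1, and 0% of genes called). At an unadjusted p under 0.05, 0 members were higher and 3 lower, beside 1.95% and 0.886% of genes tested, and without the filter 0 and 4 of 57 were, beside 1.97% and 1.05% of genes. Without the 2 arrays of widest spread, 0 tested members were higher and 1 lower. In that fit 6.83% of all genes tested passed that p in either direction, so the count of lower members depends on those arrays. Snhg15, a non-coding host gene, read 3.95, 3.42, 3.92 and 3.68 against 4.73, 4.18, 4.14 and 4.20 in lean XX pools, without overlap, and its log2 fold change was -0.57 (SE 0.21). Snord57, which lies in the snoRNP gene Nop56, read 2.07, 1.5, 1.87 and 2.46 against 2.07, 4.18, 4.41 and 2.24, a difference of -1.25 (SE 0.55) carried by lean pools 14 and 15. Snord49b differed by -1.53 (SE 0.70), with lean pool 16 at 8.81 and lean pool 14 at 5.67 while the obese-father pools lay between 3.76 and 4.07, and without pool 16 it differed by -0.42. Snord14e, which lies in the heat-shock gene Hspa8, lay between 2.43 and 2.90 in obese-father XX pools and between 3.16 and 3.44 in lean XX pools, without overlap, a difference of -0.57 (SE 0.59). Snhg15 and Snord14e were the 2 members without overlap on the lower side, where 0.413% of genes were. Gas5 differed by -0.68 (SE 0.70), Snora70 by -0.35 (SE 0.19), Snhg16 by -0.38 (SE 0.24), Snora23 by 0.64 (SE 0.61), Snora52 by 0.43 (SE 0.60), Snora30 by 0.17 (SE 0.42) and Snord73b by 0.11 (SE 0.46). Over all 51 snoRNAs 21 had a higher mean than in lean XX pools, with a median of -0.05, beside 54% of genes with a median of 0.02.

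In XY pools of obese mothers no member was called (0% of genes called). At an unadjusted p under 0.05, 1 tested member, Snord33, was lower, beside 1.1% of genes tested. Without the filter 0 of 57 were higher, beside 0.747% of genes, and 1 was lower, again Snord33, beside 1.44%. It read 3.55, 3.06, 3.68 and 3.24, and the log2 fold change of -1.17 (SE 0.48, limma adjusted p = 1) used the same lean XY pools, with pool 3 at 6.95, as the obese-father comparison, and was -0.37 without that pool. Snora52 differed by -1.03 (SE 0.60), also against lean pool 4 at 6.25, and by -0.1 without it. Snord57 differed by -0.71 (SE 0.55), against lean pool 2 at 4.83, and by 0.07 without it. Snord8 differed by 0.30 (SE 0.19), Snord95 by 0.48 (SE 0.38), Snora23 by 0.48 (SE 0.61), Gas5 by 0.45 (SE 0.70), Snora73a by 0.36 (SE 0.43), Snhg16 by 0.22 (SE 0.24), Snord55 by -0.20 (SE 0.19) and Snhg17 by -0.19 (SE 0.21). Of all 51 snoRNAs 25 had a higher mean than in lean XY pools, with a median of 0, beside 44.4% of genes.

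In XX pools of obese mothers no tested member was called or passed an unadjusted p under 0.05, where 0% and 2.19% of genes did (1.65% higher and 0.541% lower). Without the filter 1 of 57 was higher and 1 lower, beside 1.91% and 0.612% of genes. Snora74a, which lies in Snhg4, lay between 3.13 and 3.32 against 2.73 to 3.11 in lean XX pools, and Snhg5 between 2.71 and 3.18 against 3.26 to 3.73. Neither pair of groups overlapped, the differences were 0.28 (SE 0.19) and -0.41 (SE 0.37), and 1.89% of genes were higher and 0.639% lower without overlap. Snord57 differed by -1.13 (SE 0.55) and Snord49b by -1.24 (SE 0.70), against the same lean XX pools as before, and without lean pool 16 Snord49b differed by -0.13. Gas5 differed by -0.78 (SE 0.70), Snhg16 by -0.36 (SE 0.24), Snhg15 by -0.26 (SE 0.21), Snhg17 by 0.23 (SE 0.21), Snord104 by 0.89 (SE 0.88; 0.27 without obese-mother pool 18) and Snora30 by 0.25 (SE 0.42). Of all 51 snoRNAs 30 had a higher mean than in lean XX pools, with a median of 0.04, beside 62.7% of genes with a median of 0.05.

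Obese mothers were also set against obese fathers. In XY pools 1 member was higher and 4 lower at an unadjusted p under 0.05, beside 6.27% and 2.08% of genes (8.35% in all). Without the filter 1 of 57 was higher and 5 lower, beside 6.58% and 1.73%. The higher one was Snhg16 (0.51, SE 0.24), and the lower ones were Snord47, Snord8 (-0.48, SE 0.19), Snora30 (-1.16, SE 0.42) and Snhg5 (-1.06, SE 0.37). In XX pools 0 tested members passed that p in either direction, where 3.25% of genes did (1.97% higher), and 0% of genes were called. Without the filter 2 of 57 were higher and 0 lower, beside 2.16% and 1.21%.

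The test of whether the effect of obese fathers differed between XY and XX pools called no gene (0%). At an unadjusted p under 0.05 the difference was above 0 for 7 tested members and below 0 for 1, beside 1.86% and 5.68% of genes. Without the filter these counts were 10 and 1 of 57, beside 1.55% and 5.96%. The 7 were Snord47, Snord8 (0.86, SE 0.27), Gas5 (2.48, SE 0.99), Snord49b (2.46, SE 0.99), Snord22 (0.94, SE 0.39), Snord15b (0.76, SE 0.33) and Snhg5 (1.11, SE 0.52), and Snord33 (-1.53, SE 0.68) was the 1 below 0. Their limma adjusted p was 0.654 in each case. Of these, Snord49b and Snord33 rest on lean pools 16 and 3 named above. For obese mothers the same test called 0% of genes. No tested member passed an unadjusted p under 0.05, beside 2.58% of genes (0.819% higher and 1.77% lower). Without the filter 0 of 57 were higher and 0 lower, beside 0.762% and 2.17%.

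Within obese-father pools, XY exceeded XX at an unadjusted p under 0.05 for 7 tested members, beside 1.47% of genes, and 0 were lower, beside 3.94%. Without the filter 11 of 57 were higher and 0 lower, beside 1.33% and 4.32%. Besides Snord47 these were Snord8 (0.64, SE 0.19), Snora74a (0.50, SE 0.19), Snora70 (0.50, SE 0.19), Gas5 (1.76, SE 0.70), Snora30 (1.0, SE 0.42) and Snhg15 (0.47, SE 0.21). Between lean XY and XX pools 1 tested member was higher (Snord33, 1.29, SE 0.48) and 1 lower (Snord49b). These stood beside 2.52% and 0.849% of genes (3.37% in all). Without the filter 1 of 57 was higher and 1 lower, beside 2.71% and 0.853%. Between obese-mother XY and XX pools 0 tested members passed, where 1.41% of genes did. Without the filter 0 of 57 were higher and 1 lower (Snora41, -0.58), beside 0.777% and 0.953%. In both of these comparisons 0% of genes were called.

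Values far above a snoRNA's own median were common, in 1 pool or, as for Snord47 and Snord104, in several. For 24 of 51 (47.1%) the highest array lay more than 2 log2 units above the snoRNA's own median over the 24 arrays, beside 5.4% of all genes, and without the 2 arrays of widest spread these shares were 43.1% and 1.0%. The median SD over arrays was 0.53 for snoRNAs and 0.25 for all genes. Snora7a, which lies in Rpl32, read 7.54 in obese-father XY pool 12 and between 2.34 and 3.04 elsewhere. Snora3, from Rpl27a, read 5.77 in obese-mother XY pool 6 and 5.38 in lean XY pool 1, with a median of 1.93. Its second probe set gave 5.82 and 5.30 as the highest values of the same groups. The 2 sets differed by at most 0.284 on any array, so they are not counted as separate readings. Snora23, from the nuclear import gene Ipo7, read 5.93 in obese-father XX pool 23, with a median of 2.08. Snord87, from Snhg6, read 5.41 in obese-father XY pool 9 and 4.99 in obese-mother XY pool 6, with a median of 1.63. Snora44, from Snhg12, read 4.94 in lean XX pool 15, and its neighbour Snora16a from the same host stayed between 1.28 and 2.01. Snord104 had the largest SD of the members (1.33) and read over 4 on 7 arrays spread over 5 groups. These pools were high for different snoRNAs, and the labels do not say what set them apart.

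The highest array fell among the 4 obese-father XY pools for 22 of 51 snoRNAs (43.1%), against 5 to 7 in each other group and 9.4% of all genes, and without the 2 widest arrays for 18. The 22 were shared out as 5, 6, 5 and 6 over pools 9 to 12. Between 14 and 20 snoRNAs exceeded the table median in an obese-father XY pool, 11 to 15 in a lean XY pool, 9 to 16 in an obese-mother XY pool and 10 to 13 in an obese-father XX pool. Lean XX pools ranged from 11 to 20, so pool 15 of that group matched the highest obese-father XY pool.

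**Figure D3:**
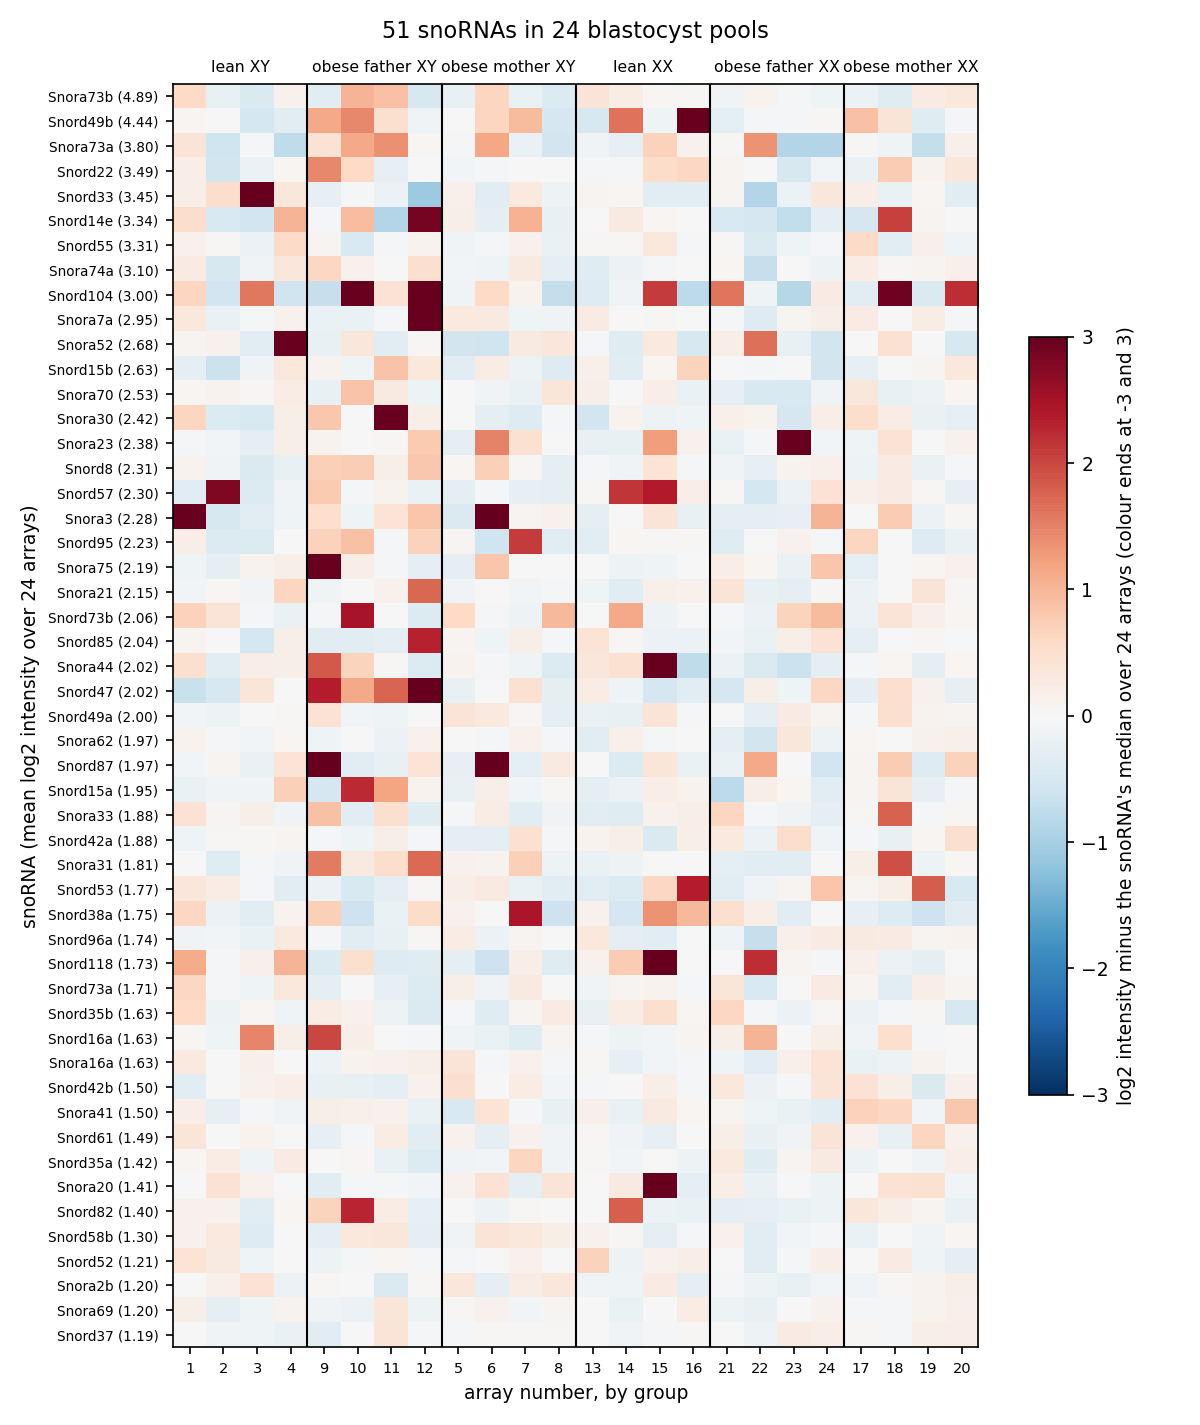
Each row is 1 of the 51 snoRNAs (ordered by mean, given in brackets), each column 1 of the 24 arrays by group, and colour is the log2 intensity minus the snoRNA's median over the arrays, ending at -3 and 3. Red cells lie above the snoRNA's median and blue cells below it, and 22 of the 51 snoRNAs have their highest array in the obese-father XY columns.

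SnoRNAs were then set beside their hosts, for the 27 pairs in which the host had its own probe set (23 hosts). Over the 24 arrays, deviations of a snoRNA from its group means had a Pearson r with those of its host between -0.60 and 0.34, with a median of 0.03. In 17 of the 27 pairs the snoRNA did not pass the filter on dim genes, so a weak r there says little about the RNAs. Over the 10 pairs with a tested snoRNA r lay between -0.33 and 0.12, also with a median of 0.03. In 14 of 27 pairs r was above 0, in 0 above 0.5 and in 23 between -0.3 and 0.3. The highest were Snord16a with Rpl4 (r = 0.34, rho = 0.28, and r = 0.04 leaving out the 2 arrays where the host deviated most), Snora33 with Rps12 (0.24, rho = 0.19), Snora41 with Eef1b2 (0.23, rho = 0.16) and Snora20 with Tcp1 (0.13, rho = 0.21). The lowest were Snord73a with Rps3a1 (r = -0.60, rho = -0.55), Snord37 with Eef2 (-0.41, rho = -0.30), Snora23 with Ipo7 (-0.33, rho = -0.23) and Snora70 with Rpl10 (-0.22, rho = -0.24). Hosts followed the signal spread, with a median r of 0.88 and 19 of 23 above 0.8. The snoRNAs had a median of 0.01, from -0.76 (Snord73a) to 0.35 (Snord16a). Most hosts were bright and most of the snoRNAs dim, and r with the spread was not compared at equal brightness. All these points share arrays, amplification and scaling, and with arrays centred on their medians 22 of 27 pairs were above 0, so the sign of these weak correlations depends on the scale.

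Differences from lean parents were then set side by side. Most hosts were bright (median level 6.92) and most of the snoRNAs dim, so the sizes of their differences are not compared. The host Rbmx was itself dim, with a mean of 1.88 and a highest value of 2.27. In obese-father XY pools the median difference from lean XY pools was 1.35 over the 23 hosts and 0.12 over the 27 snoRNAs (1.25 and 0.29 over the 10 pairs with a tested snoRNA), with both above 0 in 16 pairs, both below in 2, and a host above with a snoRNA below in 9. The host was below 0 only in the 2 pairs where both were, so 16 is the count of these snoRNAs above 0. It does not measure agreement between snoRNA and host. Rps3a1 differed by 1.15, while its snoRNAs Snord73a and Snord73b differed by -0.42 and 0.29. Ncl, the gene of nucleolin, differed by 1.70, and its snoRNAs Snora75 and Snord82 by 0.80 and 0.74, each highest in 1 pool (5.20 in pool 9 and 3.52 in pool 10). Rps3 differed by 1.10, and Snord15a and Snord15b by 0.68 and 0.46. Rpl23a differed by 1.35, and Snord42a and Snord42b by -0.01 and -0.16. Rplp2 differed by 1.36 and Snora52 by -0.95. The median host and snoRNA differences were -0.17 and 0.02 in obese-father XX pools, 0.47 and -0.02 in obese-mother XY pools, and -0.48 and 0.11 in obese-mother XX pools. These comparisons share the lean pools of each sex.

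**Figure D4:**
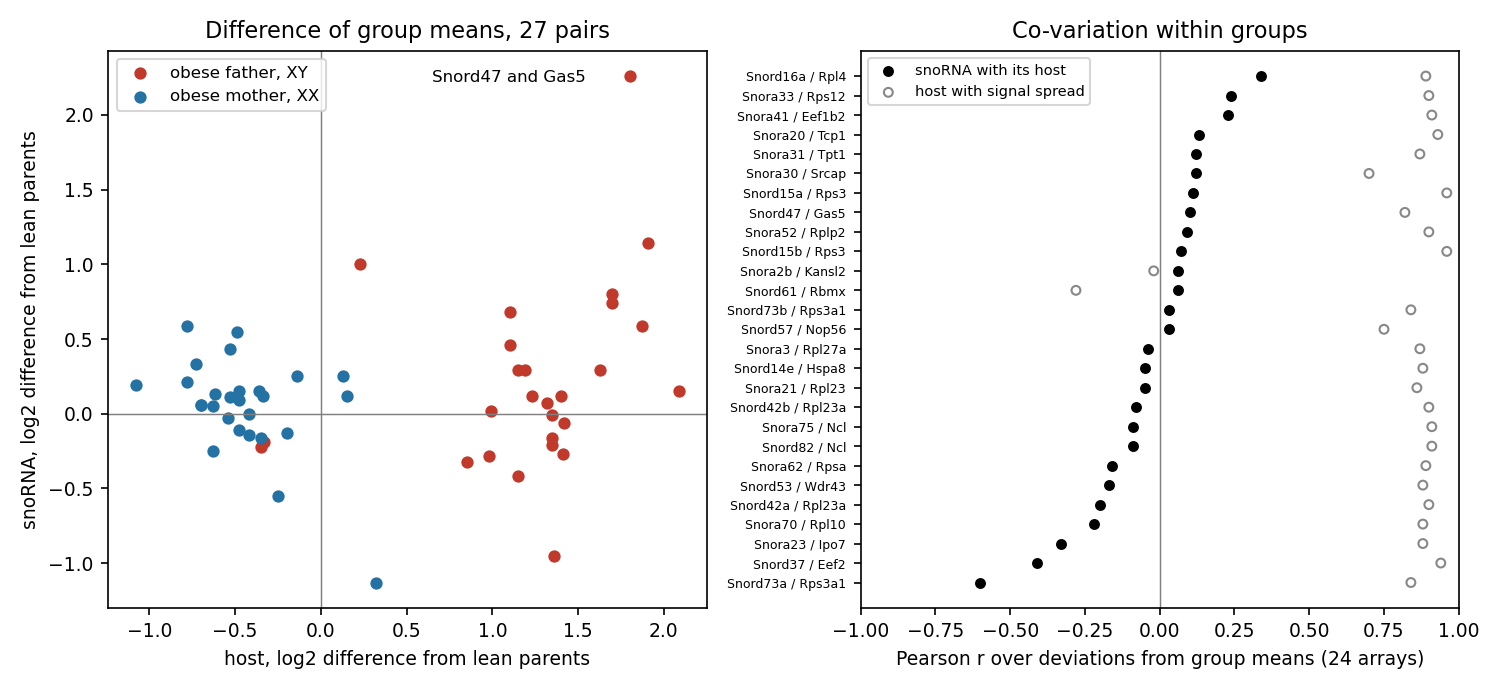
Left, the difference from lean parents of each snoRNA (y axis, log2) against that of its host (x axis, log2) for 27 pairs, in obese-father XY pools (red) and obese-mother XX pools (blue). Right, Pearson r over deviations from group means in 24 arrays for each pair (filled) and for the host with the signal spread (open), where 19 of 23 hosts lie above 0.8 and no pair lies above 0.5.

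The protein-coding hosts and the proteins that package snoRNAs were examined as lists. Of 21 tested protein-coding hosts, 20 were above 0 in obese-father XY pools, with a median of 1.35 and 12 higher at an unadjusted p under 0.05, none of them called by limma. Over all genes tested 33.3% were above 0 and 4.3% were higher at that p. Those with the smallest p were Rpl27a (1.35, SE 0.51), Tpt1 (1.91, SE 0.73), Rpsa (1.42, SE 0.55) and Rplp2 (1.36, SE 0.54). With the signal spread as a covariate 14 of 21 were above 0, with a median of 0.17 and 0 at that p. Over all genes tested the median was then -0.02, and 7.18% passed that p in either direction. The box C/D core proteins Fbl (fibrillarin, the methyltransferase; 0.83, SE 0.32), Nop56 (0.85, SE 0.57), Nop58 (1.73, SE 0.75) and Snu13 (0.81, SE 0.58) were above 0, with a median of 0.84, and none was called. The box H/ACA core proteins Dkc1 (dyskerin, the pseudouridine synthase; 0.50, SE 0.53), Gar1 (1.02, SE 0.37), Nhp2 (1.04, SE 0.58) and Nop10 (0.99, SE 0.60) had a median of 1.01 and none was called either. With the spread as a covariate 2 of 4 in each of these lists were above 0, with medians of 0.12 and -0.03. The same covariate left 9 of 12 box C/D snoRNAs and 7 of 9 box H/ACA snoRNAs above 0, with medians of 0.53 and 0.40. These counts are partly fixed by the filter, which Snord47 passed through obese-father XY arrays alone and Snord8 in part. The lists were not matched for brightness, so their medians are not compared.

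The other lists had medians nearer to 0. Assembly and transport factors had a median of 0.07, with 6 of 11 above 0. Genes of intron debranching and end trimming had a median of -0.03, with 6 of 13 above 0, and Exosc10 (-0.43, SE 0.17) and Exosc3 (-0.52, SE 0.23), subunits of the RNA exosome, were the 2 lower at an unadjusted p under 0.05, beside 10.4% of all genes. With the spread as a covariate that median was -0.42, with 1 of 13 above 0. Nonsense-mediated decay and exon junction genes, which act on the spliced RNA of Gas5-like hosts, had a median of 0.12, with 9 of 10 above 0 and the release factor gene Etf1 (1.68, SE 0.79) at that p, and with the covariate 5 of 10 were above 0. No gene of these 3 lists was called by limma in this comparison. In obese-father XX pools the protein-coding hosts had a median of -0.16, with 6 of 21 above 0, beside 54.9% of genes tested. Their median in obese-mother XY pools was 0.54, with 17 of 21 above 0, beside 46.1% of genes. In obese-mother XX pools it was -0.48, with 3 of 21 above 0, beside 61.7% of genes.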

How the data were processed

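Gene expression of 24 blastocyst pools was measured on Affymetrix arrays after amplification from lysate with the Ovation One-Direct kit, per the labels' protocols. The authors deposited log2 intensities for each probe set. The submitters' processing notes name RMA and the affy package. For versions, genome build and probe set definition, nothing was given in the sources used here. Each table column matched 1 sample, and the arrays' signal spread was left unequal.

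Names of probe sets came from the platform annotation in GEO (21789 with 1 symbol, 1621 with several, 12146 with none), and the set of highest mean per gene was used. Hosts were found by containment in a RefSeq gene table (GRCm38.p6), taking the smallest gene, without the strand that had been planned, which that table lacks. All 51 snoRNAs matched it. Promoter windows are RefSeq's, and snoRNA sequences were not used here.

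A mean per group was fitted to all 24 arrays with limma 3.58.1 (lmFit, eBayes) in R 4.3.3 for 13311 genes with at least 4 arrays above the median of all values. Adjusted p-values are Benjamini-Hochberg over these genes within 1 of 11 contrasts, and genes under 0.05 were called. The fit was tested on simulated data. Named members are those called, the hosts, snoRNAs inside Gas5 or an Snhg gene, up to 5 per direction with the smallest p in the 4 comparisons of an obese with lean parents, the brightest 8 and dimmest 4, the 5 of largest SD, and 4 pairs at each end. Others, Snora31 among them, were named after their values were seen. Members and lists were chosen with earlier results of these data known. Alternatives were other filters, the mean of probe sets, a trend and robust prior, median centring, quantile normalization, the spread as a covariate, array weights, the groups of a contrast alone, each array left out, and, chosen after seeing the data, the 2 widest arrays left out.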

Additional observations from a re-analysis of the deposited data

Results flagged for a closer look

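A pool was set apart when its gap to the nearest of the other 3 pools of its group was above Dixon's 95% limit for 4 values. This was so in 27 of 216 groups examined over 36 named members (12.5%), with 17 pools high and 10 low. Chance gives about 1 in 20, but these members were named partly for their spread. Over all 57 members the share was 12.3% (42 of 342 groups), and over all genes 6.6%. By group, 8 lay in obese-father XY, 5 in lean XX, 4 in lean XY, 4 in obese-father XX, 4 in obese-mother XY and 2 in obese-mother XX. Values are log2 intensities, each with that of the nearest pool of the same group.

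Among obese-father XY pools, high values were Snora23 in pool 12 (2.87, next 2.17), Snora69 in pool 11 (1.57, next 1.09), Snord16a in pool 9 (3.44, next 1.6) and Snord73b in pool 10 (4.24, next 1.76). Among lean XY pools, high values were Snora3 in pool 1 (5.38, next 1.79), Snora52 in pool 4 (6.25, next 2.67), Snord33 in pool 3 (6.95, next 3.91) and Snord57 in pool 2 (4.83, next 1.93). Among obese-mother XY pools, high values were Snora3 in pool 6 (5.77, next 2.07) and Snord87 in pool 6 (4.99, next 1.9). Among lean XX pools, high values were Snhg15 in pool 13 (4.73, next 4.2), Snora20 in pool 15 (4.29, next 1.49), Snord73b in pool 14 (2.89, next 1.77) and Snord8 in pool 15 (2.63, next 2.18). Among obese-father XX pools, high values were Snora23 in pool 23 (5.93, next 2.02) and Snora3 in pool 24 (2.96, next 1.69). Among obese-mother XX pools, the high value was Snora33 in pool 18 (3.54, next 1.84).

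Among obese-father XY pools, low values were Snhg17 in pool 12 (4.62, next 5.28), Snora2b in pool 11 (0.75, next 1.2), Snora41 in pool 12 (1.23, next 1.57) and Snord8 in pool 11 (2.4, next 2.92). Among obese-mother XY pools, low values were Snhg17 in pool 8 (5.15, next 5.5) and Snord37 in pool 5 (1.13, next 1.22). Among lean XX pools, the low value was Snord95 in pool 13 (1.8, next 2.17). Among obese-father XX pools, low values were Snhg11 in pool 22 (4.06, next 5.15) and Snora30 in pool 23 (1.8, next 2.4). Among obese-mother XX pools, the low value was Snhg5 in pool 20 (2.71, next 3.11).

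No member met the rule for opposite effects in XY and XX pools of obese fathers or mothers. The cause of these single values was not tested.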

How the results depend on the processing

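Of the 11 counts of members called, 8 were 0 under every alternative run. The call of Snord47 against lean XY pools became 0 members with the stricter filter (12 arrays above the median), where Snord47 with its 4 is not tested, and in a fit of the contrast's groups alone. Against obese mothers (XY) it became 0 under both of these, with the signal spread as a covariate and without the 2 arrays of widest spread. Against obese-father XX pools it became 0 under the first 2, with arrays centred on medians and without those 2 arrays. Leaving out each array gave 0 to 1 calls in each of these 3 comparisons. Of 27 pairs, 22 had r above 0 after median centring, against 14 as deposited.

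Of 786 alternatives of 45 fold changes, 753 kept direction and side of the threshold, 21 lost the call (all of Snord47) and 12 turned the sign, in 9 fold changes. Snhg17 became 0.08 (obese father, XY) and 0.01 (obese mother, XY) with the mean of its probe sets, Snhg11 became 0.13 (obese father, XY) with the spread as a covariate, and Snora52 became -0.04 (obese father, XX) without the 2 widest arrays. Leaving out each array gave ranges that crossed 0 in obese-father XX pools for Snora23 (-0.35 to 1), Snora52 (-0.04 to 0.7) and Snord73b (-0.1 to 0.4). In obese-mother XY pools they did so for Gas5 (-0.05 to 0.94), Snord95 (-0.11 to 0.78) and Snord57 (-1.01 to 0.07). Beyond the fewer arrays or genes of an alternative, the cause was not tested.

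No paired analysis was possible because the titles number the arrays from 1 to 24 and no number is shared between groups. No background level was measured, and 30 of 51 snoRNAs did not pass the filter on dim genes.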
